A study of Homo sapiens with 6 samples.

Results

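The genes of the lysosome's digestive machinery were examined as a list of 52 members in THP-1 cells. Members were chosen by their known function and not by a threshold on measured values, but with earlier results of these data known. They comprised 10 proteases, 14 glycosidases and sulfatases, 7 lipid hydrolases and activator proteins, 6 lysosomal membrane proteins, 13 subunits of the vacuolar proton pump and the 2 transcription factors TFEB and TFE3. All 52 were among the 33981 genes of the deposited table, and 51 were among the 19182 genes that passed the filter on low counts and were tested. LGMN, which encodes the asparaginyl endopeptidase legumain, did not pass it, with 17, 7 and 5 counts in the scrambled samples and 4 counts in each of the NFIC shRNA samples.

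THP-1 is a monocytic line established from an acute myeloid leukemia. Cells were infected with lentivirus carrying a scrambled shRNA (3 samples) or an shRNA against NFIC (3 samples), sorted for the GFP that both vectors expressed, and sequenced as bulk mRNA on day 4. The study's figure legend names 1 hairpin for this knockdown. Effects of that hairpin on other genes and effects of NFIC loss therefore cannot be told apart. No differentiating agent was named for either group, and no other time was analysed here. The labels, and the study's results and figure legend, call the control scrambled, where its methods describe a vector with GFP alone. All samples came from 1 cell line and are not said to be separate infections, so p-values measure the spread between these samples, which may be technical.

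Lysosomes break down proteins, glycans, lipids and nucleic acids taken up by endocytosis or delivered by autophagy. Their hydrolases work at acid pH, which the vacuolar ATPase maintains. Its V1 sector in the cytosol hydrolyses ATP and turns a rotor, and its V0 sector in the membrane carries protons inward. Many of these genes hold an E-box of the sequence CACGTG near their start, to which TFEB, TFE3 and the related factors MITF and TFEC can bind. Monocytes and macrophages are rich in lysosomes, which they use to digest what they engulf.

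NFIC, the target of the shRNA, was measured at 42.1, 41.4 and 42.2 CPM (the gene's count relative to the library's total, with totals scaled between samples by TMM factors) in the scrambled samples and at 19.4, 22.3 and 21.4 CPM in the NFIC shRNA samples. The groups did not overlap, and the log2 fold change was -0.99 with a standard error of 0.072 and an adjusted p of 3.73e-09. Total counts ranged from 20369543 to 24809720, and the limit that 3 counts set was 0.122 to 0.146 CPM, which covers counting error only. All 14 monocytic and myeloid markers were above 3 counts in every sample. Their summed level was 5740 to 6190 CPM in the scrambled samples and 4050 to 4160 CPM in the NFIC shRNA samples. With an adjusted p below 0.05, 3 of the 14 rose and 8 fell, where 29.6% of all genes tested rose and 30.3% fell. CD14, LYZ and ITGAM rose (log2 fold changes 0.65, 0.72 and 0.99). CSF1R, CD33, CD68, MPO, ELANE, AZU1, PRTN3 and CEBPA fell. The 3 of these at the highest level were ELANE (2130 to 1488 CPM), AZU1 (1105 to 372 CPM) and PRTN3 (639 to 187 CPM). Markers of other cells were low and lower still with NFIC shRNA. Their sums went from 1.62 to 1.96 CPM down to 0.388 to 0.776 CPM for T cells (2 of 6 measured), from 23.1 to 25.1 down to 16.3 to 17.9 CPM for B cells (4 of 5), from 5.83 to 6.59 down to 1.65 to 1.91 CPM for erythroid and megakaryocytic cells (3 of 6), and from 10 to 11.6 down to 2.77 to 4.01 CPM for fibroblasts and epithelial cells (7 of 7). CD3E, CD3G, CD2 and TRAC, defining T cell markers, were not analysed here. The part of these markers in the changes below was not tested. In bulk samples, fewer cells of a type and less RNA per cell cannot be told apart.

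All 13 proton pump members rose, while of the 14 glycosidases and sulfatases 3 rose and 6 fell. Of the 51 members tested, 29 rose and 10 fell with an adjusted p below 0.05 (quasi-likelihood test of edgeR). Of all genes tested, 29.6% rose and 30.3% fell under the same rule. With a fold change over 1.5 as well, 11 members rose and 7 fell, where 10.9% of all genes rose and 17.6% fell. In 30 members every NFIC shRNA sample lay above every scrambled sample, and in 13 every one lay below, where 32.2% and 33% of all genes did so. The median log2 fold change was 0.24 over the members and -0.011 over all genes tested. The members took 1.09% to 1.13% of the counts of a scrambled sample and 1.34% to 1.38% of those of an NFIC shRNA sample.

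**Figure D1:**
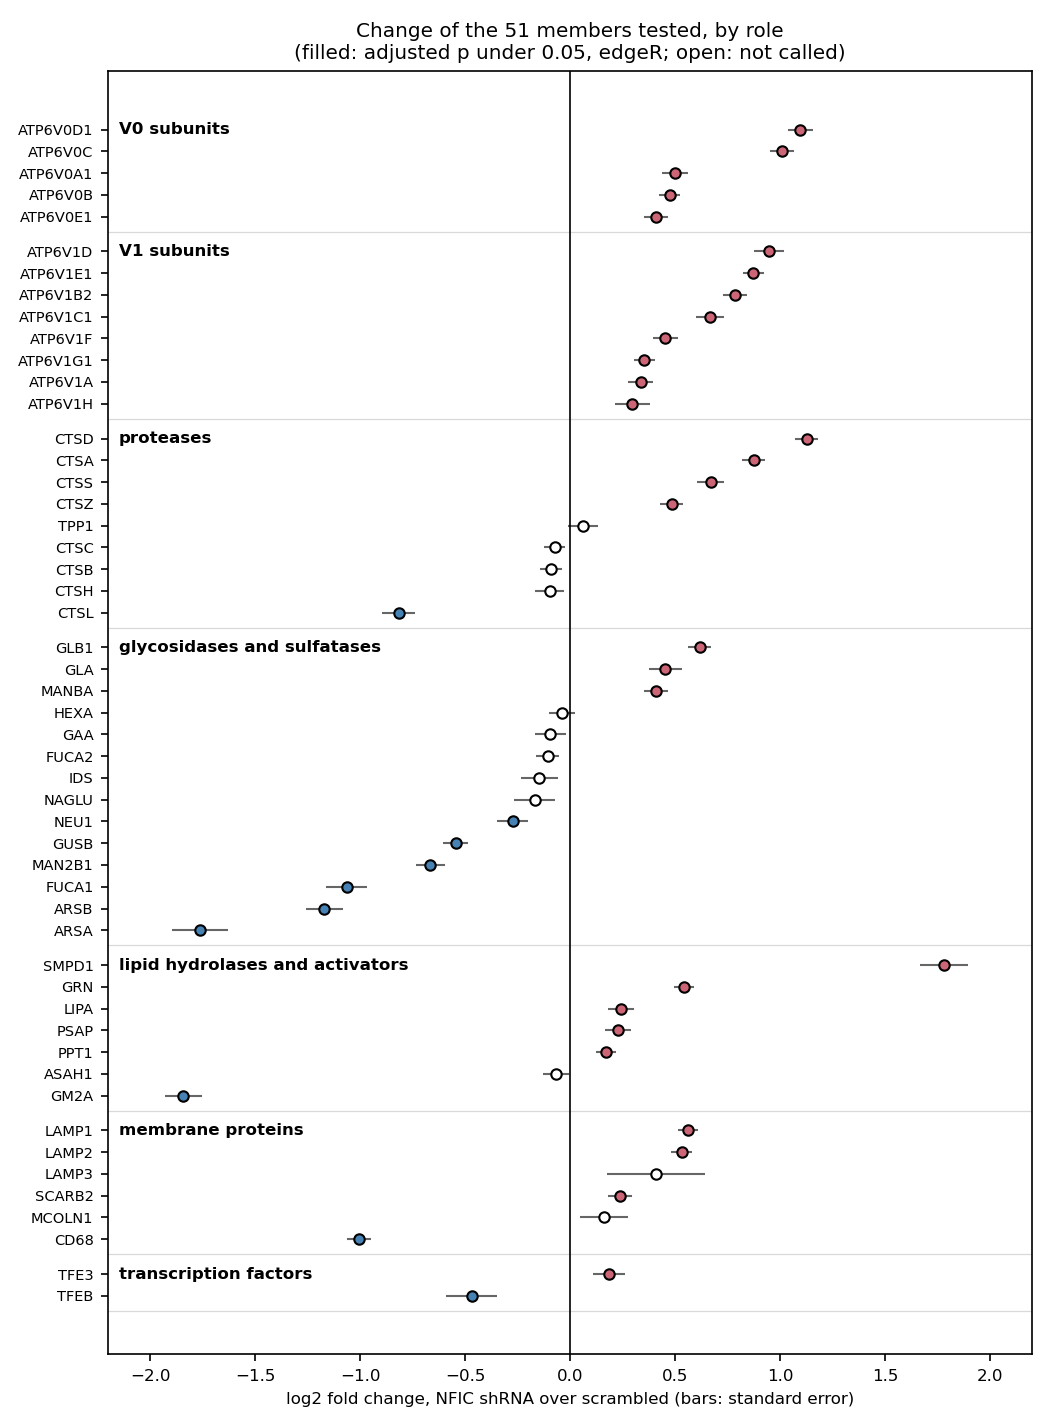
Log2 fold change of NFIC shRNA over scrambled (x axis, log2 units) for the 51 members tested, grouped by role, with bars for the standard error, filled points for members with an adjusted p under 0.05 and open points for the rest. All 13 V0 and V1 members sit right of 0, while the enzymes and activators range from -1.84 for GM2A to 1.78 for SMPD1.

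Promoters of the members were searched for the E-box that TFEB and its relatives bind, in the 250 bases before the RefSeq start of 36 members that had an entry (GRCh38.p14). CACGTG, which reads the same on both strands, was found in 9 of the 36 (25.0%) and in 6.49% of all 27305 promoters of the same length. The longer TCACGTGA, which contains it, was found in 6 members (16.7%) and in 0.89% of all. The NFI palindrome is TTGGC followed by 5 bases of any kind and GCCAA, also the same on both strands. It was found in no member and in 0.033% of all promoters (9 of 27305). A set of 36 would mostly hold none at that share, so its absence says nothing about the members. Partial matches to the palindrome were not searched. The 9 members with an E-box were ATP6V0B, ATP6V0D1, ATP6V1G1, CTSA, CTSD, GAA, LAMP1, MCOLN1 and NEU1. Of these, 6 rose and 1 (NEU1) fell, with a median log2 fold change of 0.475, and of the 27 without, 14 rose and 8 fell, with a median of 0.17. These are descriptions with no test, and a match is not a bound site.

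Windows around the E-boxes of 4 members are shown 5′ to 3′ with the motif in capitals, since they differ in how many they hold (1 in ATP6V0D1 and NEU1, 2 in MCOLN1, 5 in LAMP1) and in how the gene moved. These lie outside the gene as GENCODE v44 annotates it, and the other 5 windows reach into their gene and are not printed.
ATP6V0D1, chr16:67481191-67481236, minus strand: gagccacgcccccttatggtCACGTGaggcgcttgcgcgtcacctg
LAMP1, chr13:113297027-113297236, plus strand: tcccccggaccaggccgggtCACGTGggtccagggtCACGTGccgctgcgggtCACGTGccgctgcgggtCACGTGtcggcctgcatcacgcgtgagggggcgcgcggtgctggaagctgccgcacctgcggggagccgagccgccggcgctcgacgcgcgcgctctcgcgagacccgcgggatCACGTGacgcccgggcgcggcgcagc
MCOLN1, chr19:7522563-7522623, plus strand: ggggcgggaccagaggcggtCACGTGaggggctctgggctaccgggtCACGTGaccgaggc
NEU1, chr6:31862922-31862967, minus strand: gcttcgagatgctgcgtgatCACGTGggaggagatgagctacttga

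Among these 4, ATP6V0D1 with 1 E-box had the largest fold change of the pump members, LAMP1 with 5 rose by 0.56 on the log2 scale, MCOLN1 with 2 was not called, and NEU1 with 1 fell by 0.27. SMPD1 and GM2A, the members that moved furthest, had a promoter entry and no E-box in this window. The start used lies 34 bases inside the gene as GENCODE v44 gives it for SMPD1, but 41035 bases inside for GM2A. For CTSC, SCARB2 and IDS, also without an E-box, it lies 21948, 20712 and 15790 bases inside. Other starts were not searched.

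All 5 members of the pump's membrane sector rose. ATP6V0D1 (ENSG00000159720, GRCh38 chr16:67438014-67481181), the subunit that joins the membrane ring to the central stalk, was at 41.6, 38.6 and 39.1 CPM in the scrambled samples and 86.3, 81.6 and 87.2 CPM in the NFIC shRNA samples. The groups were far apart, at 85.1 ± 3.04 CPM against 39.8 ± 1.59 CPM (SD, n = 3), a log2 fold change of 1.10 with a standard error of 0.059 and an adjusted p of 1.20e-10. ATP6V0C (ENSG00000185883, GRCh38 chr16:2513952-2520218), which forms most of the proton-carrying ring, was at 84.3, 84.2 and 87.4 CPM in the scrambled samples and 164, 166 and 185 CPM in the NFIC shRNA samples. No sample of either group entered the other's range, and the means were 172 ± 11.8 CPM against 85.3 ± 1.85 CPM (SD, n = 3), a log2 fold change of 1.01 with a standard error of 0.057 and an adjusted p of 1.67e-10. The remaining V0 members had smaller fold changes. ATP6V0A1, the a subunit through which protons enter and leave the ring, was at 68.9, 61.9 and 74.1 CPM in the scrambled samples and 95.5, 95.5 and 98.4 CPM in the NFIC shRNA samples, without overlap (log2 fold change 0.50, adjusted p = 2.73e-06). ATP6V0B, a further ring subunit, went from 196 ± 5.11 CPM to 272 ± 12.5 CPM (log2 fold change 0.48, adjusted p = 3.74e-07), and ATP6V0E1, a small membrane subunit, from 63.5 ± 1.45 CPM to 84.3 ± 3.94 CPM (log2 fold change 0.41, adjusted p = 7.40e-06).

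All 8 members of the ATP-hydrolysing V1 sector rose too. ATP6V1D, part of the central rotor, was at 32.5, 33.3 and 31.0 CPM in the scrambled samples and 58.8, 59.9 and 68.0 CPM in the NFIC shRNA samples. The groups did not overlap (log2 fold change 0.95, adjusted p = 4.02e-09). ATP6V1E1, part of the peripheral stalks that hold the sector still, was at 105, 105 and 112 CPM in the scrambled samples and 202, 191 and 197 CPM in the NFIC shRNA samples. The lowest NFIC shRNA sample stood well above the highest scrambled sample (log2 fold change 0.87, adjusted p = 2.65e-10). ATP6V1B2, the B subunit that pairs with the catalytic A subunit, was at 118, 109 and 110.3 CPM in the scrambled samples and 196, 181 and 204 CPM in the NFIC shRNA samples. Here also the groups were separate (log2 fold change 0.78, adjusted p = 3.38e-09). ATP6V1C1, an isoform of the C subunit, which links V1 to V0, rose again without overlap (log2 fold change 0.67, adjusted p = 1.79e-07). It was at 44.7, 47.4 and 43.5 CPM in the scrambled samples and 70.4, 66.8 and 78.3 CPM in the NFIC shRNA samples. The catalytic subunit ATP6V1A, which binds and hydrolyses ATP, rose from 60.4 ± 1.38 CPM to 76.2 ± 5.06 CPM (log2 fold change 0.34, adjusted p = 1.27e-04). ATP6V1F of the rotor (log2 fold change 0.45, adjusted p = 4.70e-06), ATP6V1G1 of the stalks (log2 fold change 0.35, adjusted p = 9.85e-06) and the regulatory ATP6V1H (log2 fold change 0.30, adjusted p = 0.00566) rose to between 123% and 137% of the scrambled level.

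The summed level of the 13 pump members was 995, 959 and 980 CPM in the scrambled samples and 1533, 1468 and 1582 CPM in the NFIC shRNA samples. The V0 sum was 453 ± 10.7 CPM and 710.0 ± 25.9 CPM, and the V1 sum 525 ± 7.57 CPM and 818 ± 31.2 CPM (SD, n = 3). The sums stood at 1.57 times the scrambled level for V0 and 1.56 times for V1. Single members ranged in log2 fold change from 0.30 for ATP6V1H to 1.10 for ATP6V0D1. Of the 13, 6 rose by over 1.5-fold, as did 10.9% of all genes tested. Isoforms outside the members are left out of these sums. TCIRG1 (103 to 135 CPM) stood above the member ATP6V0A1. ATP6V1C2, named after its values were seen, went from 184 to 212 CPM with overlapping groups (log2 fold change 0.20). In the scrambled samples it was at 52.4 CPM per kilobase, against 7.72 for the member ATP6V1C1.

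**Figure D2:**
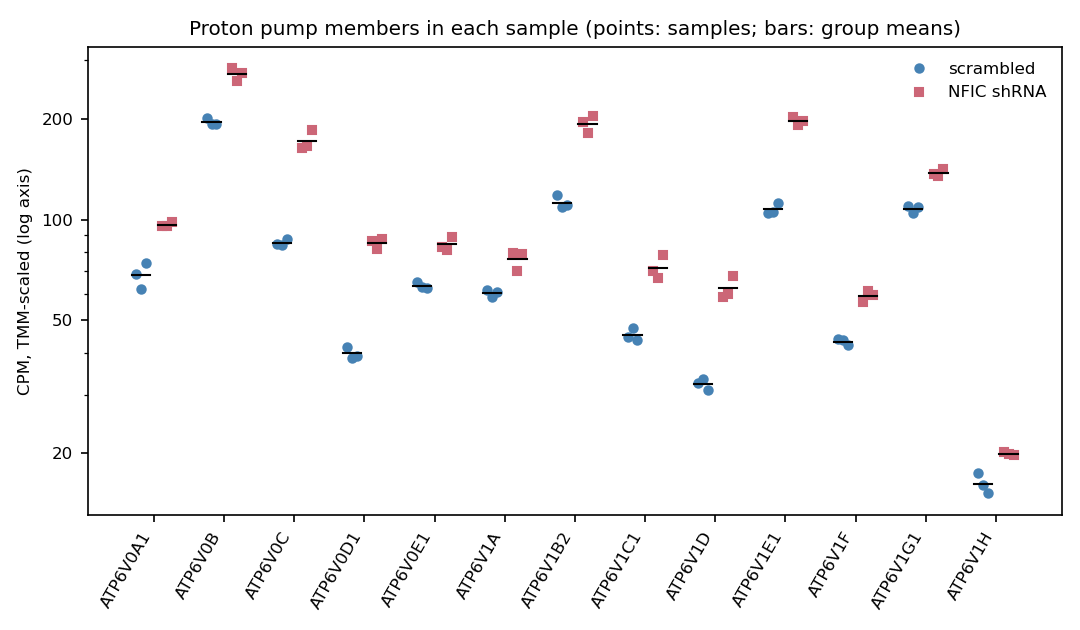
CPM (log axis) of the 13 pump members in each of the 3 scrambled (circles) and 3 NFIC shRNA samples (squares), with bars for group means. No member's groups overlap, and the gap is widest for ATP6V0D1 and narrowest for ATP6V1H.

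The a subunit is encoded by several genes, whose products direct the pump to different membranes. The shares of ATP6V0A1, ATP6V0A2 and TCIRG1 in their summed counts per kilobase were compared within each sample. ATP6V0A4 was not analysed here. TCIRG1, which encodes the a3 isoform found on lysosomes, held the largest share, 72.9% ± 2.57 in the scrambled and 74.4% ± 2.49 in the NFIC shRNA samples (SD, n = 3, exact permutation test, two-sided p = 0.5). The share of ATP6V0A1 was 19.4% ± 2.04 and 21.4% ± 2.15 (exact p = 0.4). ATP6V0A2, the isoform of the Golgi and endosomes, went from 7.71% ± 0.536 to 4.19% ± 0.475 without overlap, and its exact p of 0.1 is the smallest that 3 against 3 samples can give. In level, TCIRG1 rose from 103 to 135 CPM (log2 fold change 0.40, adjusted p = 3.23e-04) and ATP6V0A2 fell from 33.9 to 23.6 CPM (log2 fold change -0.52, adjusted p = 1.64e-05).

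Pump genes outside the members moved in both directions, as genes did at large. Of 16 tested isoform and assembly genes, 7 rose, 5 fell and 4 were not called, with a median log2 fold change of 0.14. Of all genes tested, 29.6% rose and 30.3% fell, with a median of -0.011. ATP6AP1, an accessory subunit needed for assembly, rose most, from 80.1 to 151 CPM (log2 fold change 0.92, adjusted p = 5.16e-10). Of the genes at a mean of 5 CPM or more, ROGDI, of a complex that helps V1 join V0, fell most (log2 fold change -0.68, adjusted p = 5.80e-07). Below that level 2 subunit genes, named after their values were seen, fell further. ATP6V1B1, the B subunit isoform of kidney and inner ear, went from 1.69 ± 0.347 to 0.713 ± 0.113 CPM (log2 fold change -1.23, adjusted p = 0.00106), and ATP6V0E2, an isoform of the small e subunit, from 6.24 ± 1.32 to 2.97 ± 0.625 CPM (log2 fold change -1.08, adjusted p = 8.35e-05).

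Among the proteases, 4 rose, 1 fell and 4 were not called of the 9 tested, where 29.6% of all genes rose and 30.3% fell. CTSD (ENSG00000117984, GRCh38 chr11:1752752-1764573), the main aspartic protease of the lysosome, was at 416, 376 and 416 CPM in the scrambled samples and 855, 860.5 and 924 CPM in the NFIC shRNA samples. The groups were wide apart, at 880.1 ± 38.4 CPM against 403 ± 23.0 CPM (SD, n = 3), a log2 fold change of 1.13 with a standard error of 0.054 and an adjusted p of 3.23e-11. CTSA, a serine carboxypeptidase that also shields the enzymes GLB1 and NEU1 from degradation, was at 129, 131 and 119 CPM in the scrambled samples and 234, 219 and 242 CPM in the NFIC shRNA samples. It rose in all NFIC shRNA samples relative to every scrambled one (log2 fold change 0.88, adjusted p = 5.93e-10). CTSS, a cysteine protease that processes the invariant chain in antigen presentation, was at 172, 153 and 179 CPM in the scrambled samples and 281, 248 and 273 CPM in the NFIC shRNA samples, without overlap (log2 fold change 0.67, adjusted p = 1.06e-07). The carboxypeptidase CTSZ rose as well, from 218 ± 5.78 CPM to 305 ± 21.7 CPM (log2 fold change 0.48, adjusted p = 7.84e-07).

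CTSL (ENSG00000135047, GRCh38 chr9:87724051-87731469), a cysteine endopeptidase, went the other way, at 52.8, 58.0 and 56.5 CPM in the scrambled samples and 35.0, 32.3 and 27.8 CPM in the NFIC shRNA samples. Its highest NFIC shRNA sample was below its lowest scrambled sample, and the means were 31.7 ± 3.63 CPM against 55.7 ± 2.71 CPM (SD, n = 3), a log2 fold change of -0.82 with a standard error of 0.078 and an adjusted p of 1.10e-07. CTSB, the cysteine protease with both endo- and exopeptidase activity, the dipeptidyl peptidase CTSC, the aminopeptidase CTSH and the tripeptidyl peptidase TPP1 were not called. Their log2 fold changes were -0.091 ± 0.054 (SE, adjusted p = 0.158), -0.074 ± 0.05 (SE, adjusted p = 0.212), -0.097 ± 0.069 (SE, adjusted p = 0.238) and 0.06 ± 0.072 (SE, adjusted p = 0.489). Without scrambled replicate 2, CTSB was called at -0.15, and without NFIC shRNA replicate 3, TPP1 was called at 0.15. TPP1 changed sign, to -0.0061, without NFIC shRNA replicate 2. The summed level of the proteases was 1609 ± 51.7 CPM in the scrambled and 2337 ± 61.2 CPM in the NFIC shRNA samples.

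Of the 14 glycosidases and sulfatases, 3 rose, 6 fell and 5 were not called, with a median log2 fold change of -0.16. Over all genes tested, 29.6% rose and 30.3% fell. ARSA (ENSG00000100299, GRCh38 chr22:50622754-50628173), the arylsulfatase that removes sulfate from sulfatide and is lost in metachromatic leukodystrophy, was at 29.4, 26.4 and 31.3 CPM in the scrambled samples and 8.10, 10.8 and 6.67 CPM in the NFIC shRNA samples. Its groups did not overlap, with means of 8.53 ± 2.10 CPM against 29.0 ± 2.46 CPM (SD, n = 3), a log2 fold change of -1.76 with a standard error of 0.13 and an adjusted p of 3.36e-08. ARSB, the sulfatase for dermatan sulfate, was at 45.3, 48.8 and 44.0 CPM in the scrambled samples and 18.6, 19.0 and 23.6 CPM in the NFIC shRNA samples. FUCA1, the lysosomal fucosidase, was at 16.4, 17.1 and 17.1 CPM in the scrambled samples and 8.10, 8.71 and 7.37 CPM in the NFIC shRNA samples. Neither gene had overlapping groups, and both fell, with log2 fold changes of -1.17 and -1.06 (adjusted p = 5.19e-09 and 6.32e-08).

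MAN2B1, the lysosomal alpha-mannosidase, was at 219, 201 and 222 CPM in the scrambled samples and 144, 143 and 118 CPM in the NFIC shRNA samples (log2 fold change -0.67, adjusted p = 5.11e-07). GUSB, the beta-glucuronidase often used as a reference gene, was at 123, 121 and 119 CPM in the scrambled samples and 79.2, 90.7 and 79.3 CPM in the NFIC shRNA samples (log2 fold change -0.54, adjusted p = 4.44e-07). In both, every NFIC shRNA sample was below every scrambled sample. The sialidase NEU1 fell from 53.8 ± 4.03 CPM to 44.5 ± 3.86 CPM (log2 fold change -0.27, adjusted p = 0.00399). GLB1, the acid beta-galactosidase, was an exception, at 189, 212 and 189.8 CPM in the scrambled samples and 299, 295 and 314 CPM in the NFIC shRNA samples. It rose, without overlap between its groups (log2 fold change 0.62, adjusted p = 3.81e-08), and 2 further enzymes rose, GLA, the alpha-galactosidase lost in Fabry disease (log2 fold change 0.45, adjusted p = 9.01e-05) and the beta-mannosidase MANBA (log2 fold change 0.41, adjusted p = 6.18e-06).

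HEXA, FUCA2, GAA, IDS and NAGLU, which act in turn on gangliosides, fucosylated glycans, glycogen, dermatan sulfate and heparan sulfate, were not called. Their log2 fold changes were -0.038 ± 0.062 (SE, adjusted p = 0.614), -0.11 ± 0.055 (SE, adjusted p = 0.102), -0.094 ± 0.074 (SE, adjusted p = 0.291), -0.15 ± 0.088 (SE, adjusted p = 0.159) and -0.17 ± 0.099 (SE, adjusted p = 0.151). Without NFIC shRNA replicate 2, GAA, IDS and NAGLU were called lower, at -0.18, -0.23 and -0.25. Without NFIC shRNA replicate 3, FUCA2 was called, at -0.13, while GAA and HEXA changed sign to 0.0061 and 0.044 and were not called. The summed level of these enzymes was 1442 ± 11.3 CPM and 1362 ± 71.0 CPM (SD, n = 3).

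The genes for lipid breakdown held the members that moved furthest in each direction. SMPD1 (ENSG00000166311, GRCh38 chr11:6390440-6394998), the acid sphingomyelinase that is lacking in Niemann-Pick disease types A and B, was at 6.47, 4.71 and 5.23 CPM in the scrambled samples and 19.5, 18.1 and 18.6 CPM in the NFIC shRNA samples. The lowest NFIC shRNA sample was far above the highest scrambled one, and the means were 18.7 ± 0.737 CPM against 5.47 ± 0.904 CPM (SD, n = 3), a log2 fold change of 1.78 with a standard error of 0.11 and an adjusted p of 8.14e-10. GM2A (ENSG00000196743, GRCh38 chr5:151212150-151270440), the activator that presents ganglioside GM2 to the HEXA-containing hexosaminidase, was at 82.0, 80.0 and 83.7 CPM in the scrambled samples and 24.2, 25.7 and 18.7 CPM in the NFIC shRNA samples. It fell to 27.9% of the scrambled mean, at 22.9 ± 3.69 CPM against 81.9 ± 1.83 CPM (SD, n = 3), a log2 fold change of -1.84 with a standard error of 0.088 and an adjusted p of 9.88e-11. GRN, the progranulin precursor of small lysosomal granulins, rose from 692 ± 13.2 CPM to 1008 ± 32.1 CPM (log2 fold change 0.54, adjusted p = 3.53e-08). PSAP, which yields the saposins, LIPA, the acid lipase for cholesteryl esters and triglycerides, and PPT1, which removes palmitate from proteins, rose with log2 fold changes of 0.23, 0.24 and 0.17 (adjusted p = 0.0038, 0.00248 and 0.00503). The acid ceramidase ASAH1 was not called, at -0.067 ± 0.06 (SE, adjusted p = 0.348).

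**Figure D3:**
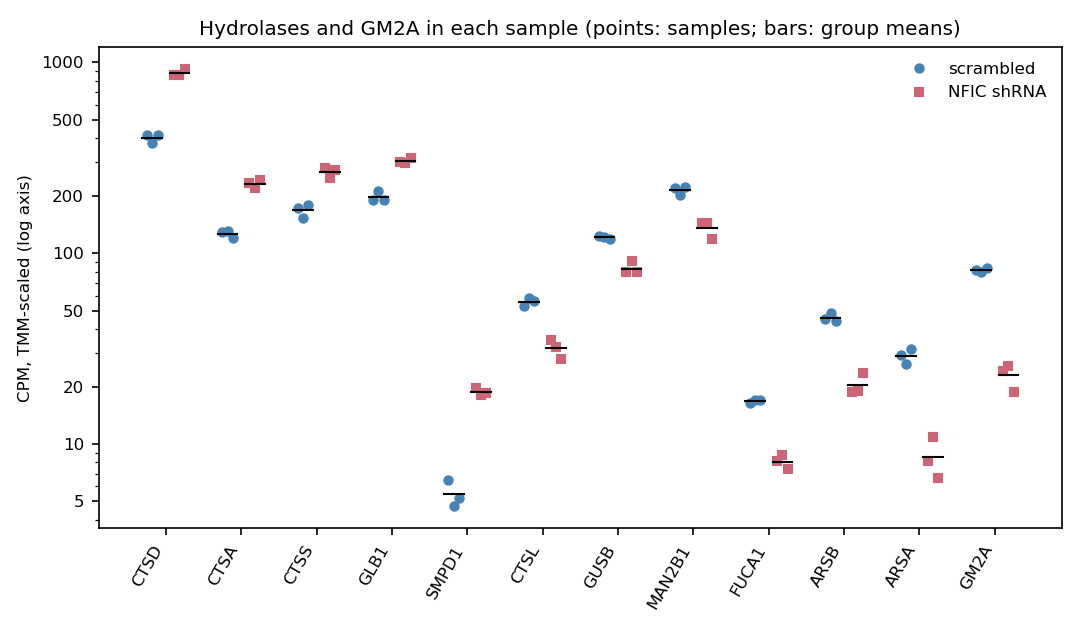
CPM (log axis) of 11 hydrolases and GM2A in each of the 3 scrambled (circles) and 3 NFIC shRNA samples (squares), with bars for group means. CTSD, CTSA, CTSS, GLB1 and SMPD1 are higher in every NFIC shRNA sample, and CTSL, GUSB, MAN2B1, FUCA1, ARSB, ARSA and GM2A are lower in every one.

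Counts of genes whose products work together were also set against each other within each sample. The count of GM2A relative to that of HEXA went from 0.254 in the scrambled to 0.0723 in the NFIC shRNA samples on average. CTSA and GLB1 form a complex with NEU1, and their counts relative to NEU1 went from 2.36 to 5.23 and from 3.69 to 6.84. ARSA, which needs a PSAP-derived saposin to act on sulfatide, went from 0.0203 to 0.00508 relative to PSAP, and SMPD1 from 0.00382 to 0.0113. These are ratios of counts not corrected for length, so only their change between groups can be read.

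Of the 6 membrane proteins, 3 rose, 1 fell and 2 were not called, where 29.6% of all genes tested rose and 30.3% fell. LAMP1, a heavily glycosylated protein that lines the lysosomal membrane, was at 225, 222 and 224 CPM in the scrambled samples and 336, 313 and 342 CPM in the NFIC shRNA samples. The groups did not overlap (log2 fold change 0.56, adjusted p = 3.82e-08). LAMP2, its close relative that also serves chaperone-mediated autophagy, rose from 227 ± 4.25 CPM to 328 ± 13.9 CPM (log2 fold change 0.53, adjusted p = 7.22e-08), and SCARB2, the receptor that carries glucocerebrosidase to the lysosome, rose with a smaller fold change (log2 fold change 0.24, adjusted p = 0.0017). CD68 (ENSG00000129226, GRCh38 chr17:7579491-7582111), a LAMP family protein of monocytes and macrophages that is also among the 14 myeloid markers, was at 252, 269 and 262 CPM in the scrambled samples and 127, 139.7 and 124 CPM in the NFIC shRNA samples. Its means were 130.0 ± 8.56 CPM against 261 ± 8.34 CPM (SD, n = 3), a log2 fold change of -1.01 with a standard error of 0.055 and an adjusted p of 1.37e-10. LAMP3 of dendritic cells and the calcium channel MCOLN1 were not called, at 0.41 ± 0.23 (SE, adjusted p = 0.145) and 0.16 ± 0.11 (SE, adjusted p = 0.23). LAMP3 was called higher without NFIC shRNA replicate 3, at 0.64, and with no filter on low counts, at 0.41 (adjusted p = 0.0488).

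TFEB and TFE3 drive transcription of lysosomal genes when they enter the nucleus, which mRNA levels do not show. TFEB was at 17.0, 14.6 and 15.6 CPM in the scrambled samples and 10.1, 14.0 and 9.92 CPM in the NFIC shRNA samples. It fell to 72.1% of the scrambled mean (log2 fold change -0.47, adjusted p = 0.00331), and NFIC shRNA replicate 2 was closest to the scrambled samples, which it did not reach. TFE3 was at 21.5, 23.0 and 22.1 CPM in the scrambled samples and 24.5, 26.8 and 24.7 CPM in the NFIC shRNA samples. It was higher in every NFIC shRNA sample (log2 fold change 0.19, adjusted p = 0.0422). But in 9 of 12 alternative analyses its adjusted p was 0.05 or more, and the adjusted p ranged from 0.0347 to 0.149. The adjusted p was 0.147 without scrambled replicate 1, 0.109 without scrambled replicate 3, 0.0536 without NFIC shRNA replicate 1 and 0.142 without NFIC shRNA replicate 2.

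The 4 factors of this family were also compared as shares of their summed counts per kilobase. TFEC, the member found mainly in myeloid cells, held most, and its share went from 54.1% ± 0.449 to 62.8% ± 1.99 (SD, n = 3). TFEB went from 14.7% ± 1.10 to 8.72% ± 1.36, TFE3 from 27.9% ± 1.09 to 26.3% ± 0.273, and MITF from 3.32% ± 0.313 to 2.21% ± 0.423. Groups did not overlap for any of the 4 (exact permutation test, two-sided p = 0.1 for each, the smallest this design allows). Shares sum to a whole, so they cannot move independently. In level, TFEC rose from 88.8 to 124 CPM (log2 fold change 0.48, adjusted p = 3.07e-07), and MITF was not called (log2 fold change -0.30, adjusted p = 0.146), except without NFIC shRNA replicate 2, where it was -0.52.

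**Figure D4:**
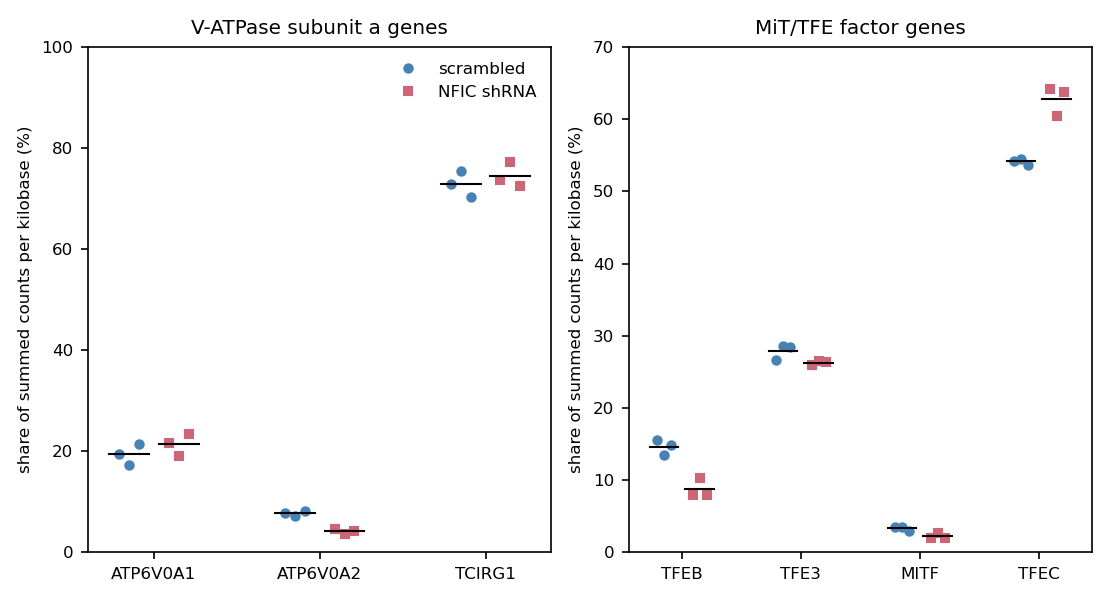
Share of each gene in its family's summed counts per kilobase (y axis, %) for the V-ATPase a subunit genes (left) and the MiT/TFE factor genes (right) in each scrambled (circles) and NFIC shRNA sample (squares), with bars for group means. ATP6V0A2, TFEB, TFE3 and MITF hold smaller shares with NFIC shRNA and TFEC a larger one.

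Lists of further lysosomal genes, written from general knowledge, were read the same way. Beside their counts, 29.6% of all genes tested rose and 30.3% fell, with a median log2 fold change of -0.011. Of 29 other lysosomal hydrolases tested, 11 rose, 13 fell and 5 were not called, with a median log2 fold change of -0.24. SGSH, the heparan N-sulfatase, rose most (3.91 to 12.8 CPM, log2 fold change 1.71, adjusted p = 3.05e-09), and DNASE2, the acid DNase that digests DNA of engulfed cells, fell most (19.0 to 5.72 CPM, log2 fold change -1.73, adjusted p = 7.76e-10). Of 25 other lysosomal membrane and transport proteins, 10 rose, 5 fell and 10 were not called (median 0.025). The cholesterol carrier NPC2, which is soluble but was in this list, rose most (log2 fold change 0.86, adjusted p = 1.09e-09) and TMEM9 fell most (log2 fold change -0.61, adjusted p = 6.69e-06).

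Of 12 genes for mannose 6-phosphate tagging and sorting, 7 rose, 2 fell and 3 were not called (median 0.27). Beside this list and the next, 29.6% of all genes tested rose and 30.3% fell (median -0.011). SORT1, the receptor sortilin that carries prosaposin and sphingomyelinase to the lysosome, rose from 43.5 to 110 CPM (log2 fold change 1.34, adjusted p = 2.67e-10). VPS35, the core of the retromer that returns such receptors to the Golgi, fell from 107 to 53.6 CPM (log2 fold change -1.002, adjusted p = 2.09e-10). A list for nutrient sensing at the lysosome had 19 genes, among them the factors TFEC and MITF already described. Of these 19, 14 rose, TFEC included, 1 fell and 4 were not called, MITF included (median 0.32). FNIP2, the folliculin partner, rose most (19.0 to 50.4 CPM, log2 fold change 1.41, adjusted p = 2.74e-10), and LAMTOR4 of the Ragulator complex was the gene that fell (log2 fold change -0.56, adjusted p = 5.35e-06).

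In level per length the members spanned a wide range. In the scrambled samples PPT1 was at 781 CPM per kilobase, followed by PSAP at 448, GRN at 196, CTSD at 131 and CD68 at 121. With NFIC shRNA CTSD stood at 286, level with GRN at 286, and CD68 at 60.1. PPT1 dominated the summed level of the members. The sum over the 52 was 11190.1 CPM in the scrambled and 13504 CPM in the NFIC shRNA samples, 1.21 times as much, and 1.25 times without PPT1.

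**Figure D5:**
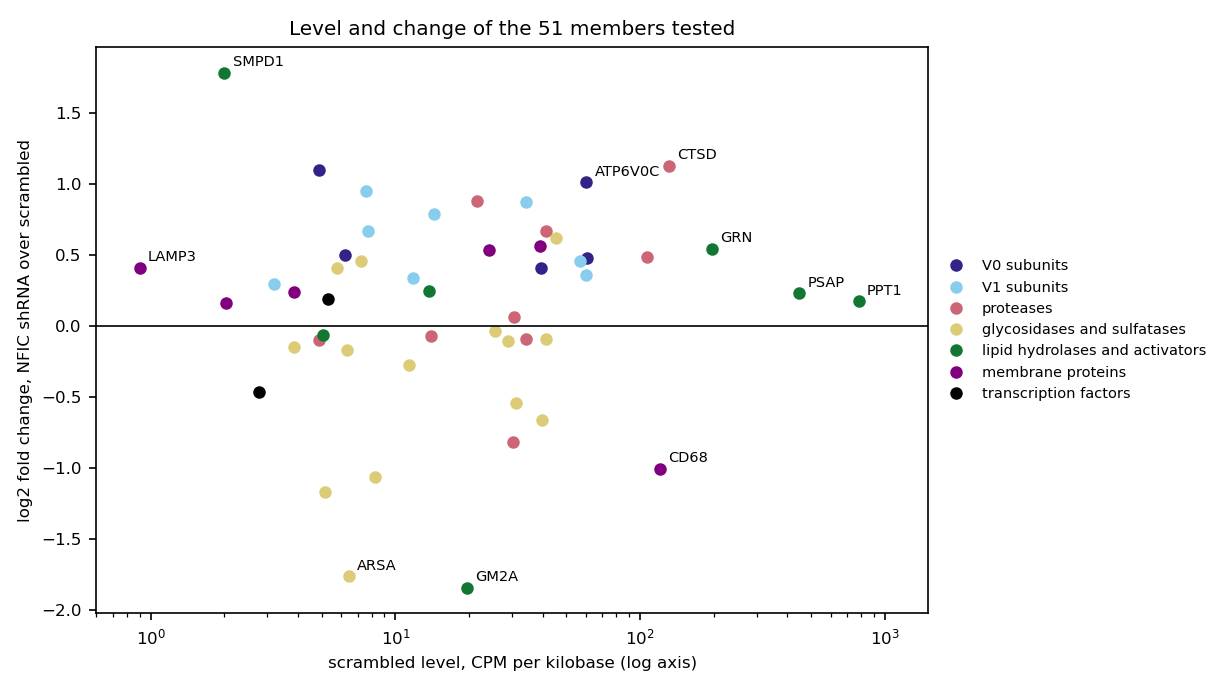
Level in the scrambled samples (x axis, CPM per kilobase, log axis) and log2 fold change of NFIC shRNA over scrambled (y axis) for the 51 members tested, coloured by role. PPT1 and PSAP, the members with the highest level, have log2 fold changes of 0.23 or less, and SMPD1, ARSA and GM2A, which moved furthest, were at low to middle levels.

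Exons of 24 members overlap those of another gene in the table (GENCODE v44), and in 15 that gene was at 20% or more of the member's level. GENCODE v44 is a later annotation than the Ensembl build on which reads were counted. The exon length it gives was within 1% of the deposited gene length in 16 of the 24, and shares are given only for members among these. Whether reads were counted by strand, and how reads on both genes were treated, is not given in the sources used here, so these values are less certain. ATP6V0C shares 60.9% of its exon bases with AC093525.2 on the same strand, which went from 86.2 to 171 CPM, as ATP6V0C did. CD68 shares 81.6% with AC016876.3 (756 to 683 CPM) and IDS 75.0% with AC244197.3 (35.8 to 31.2 CPM). In the later annotation CTSD also overlaps AC068580.4 (309 to 679 CPM), and on the opposite strand CTSA overlaps PLTP (123 to 44.6 CPM) and GLA overlaps RPL36A (494 to 302 CPM). GUSB has 8 pseudogenes in the table, with a summed level of 70.3 and 59.7 CPM.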

How the data were processed

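The 6 samples were grouped by the labels' lentiviral infection. According to the study's methods and processing notes, the authors trimmed reads with Trim Galore, checked them with FastQC, mapped them to GRCh38 with STAR and counted them per gene with featureCounts (versions not given in the sources used here). The authors deposited the raw counts per gene without normalization, together with the gene length. Their normalized counts, FPKM values and DESeq2 comparison columns (fold changes, p-values) were not used here.

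The counts were fitted in R 4.3.3 with edgeR 4.0.16, using TMM, its filter on low counts, robust dispersions and the two-sided quasi-likelihood test, followed by Benjamini-Hochberg adjustment over 19182 genes and a threshold of 0.05. The standard error is the log2 fold change over the square root of F. Values are CPM scaled by TMM factors (mean ± SD, n = 3). Totals of 20369543 to 24809720 counts set the precision. Gene locations came from GENCODE v44 by gene identifier, and promoters from RefSeq. Shares used exact permutation tests over samples.

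The members and lists were chosen with earlier results of these data known. The rule for named genes took all members, NFIC, and of each further list the called gene that rose most and the one that fell most at a mean of 5 CPM or more, plus all a subunit and MiT/TFE genes. Values in every sample were given for up to 20 called members with the largest change. Genes sharing exons were named after their values were seen. Alternatives were upper-quartile normalization or size factors from DESeq2 in place of TMM, the DESeq2 1.42.0 test, no filter, a minimum of 10 counts, a replicate block, shares without length, and leaving out each sample. The test was tried on simulated data with known changes.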

Additional observations from a re-analysis of the deposited data

How the results depend on the processing

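The members called higher numbered 28 to 31 and those called lower 10 to 13 under every alternative, against 29 and 10. With upper-quartile normalization CTSB, CTSC and FUCA2 were also called lower, at -0.148, -0.131 and -0.164. The median log2 fold change over the members was 0.184 with upper-quartile normalization, where 43.2% of all calls were higher against 49.4% with TMM and between 48.7% and 51.6% in the other alternatives, and 0.221 to 0.293 when single samples were left out. Replicates were numbered here by their order within a group, and the deposited control titles skip a number. Samples of the same order did not deviate together (correlations of 0.0563, -0.0862 and -0.0446). The replicate block used this order too. Other pairings, such as by the numbers in the titles, were not tested. With the replicate block, 28 members were called higher and 10 lower, and 10983 genes in all against 11486. The block took TFE3 out of the calls (log2 fold change 0.187, adjusted p = 0.0572) and moved no other member across the threshold. DESeq2 called 10176 genes in all. In shares taken without gene length, ATP6V0A1 differed by 4.58 and ATP6V0A2 by -7.27 percentage points between groups. When single samples were left out, TPP1 ranged from -0.00606 to 0.146, GAA from -0.179 to 0.00613 and HEXA from -0.0805 to 0.0436. Alternatives were run for the tested members, NFIC, the a subunit and MiT/TFE genes, and genes named by rule from the lysosomal and pump lists. Of these, 55 kept their direction and side of the threshold in every alternative and 11 did not in at least 1. ATP6V1C2, ATP6V1B1, ATP6V0E2, the genes sharing exons and the cell markers except CD68 were not put through them. With 3 samples in a group, Dixon's test was not applied. Depth sets a limit of 3 counts, 0.122 to 0.146 CPM.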
